A study of Homo sapiens with 24 samples.

Results

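The genes described here are 10 markers of mesoderm and endoderm outside the T-box family: KDR, PDGFRA, HAND1, HAND2, GATA4, GATA6, SOX17, FOXA1, FOXA2 and CXCR4. They were chosen by name, and all 10 were found among the 61551 genes of the count table. RNA came from H9 (WA09) cells, an established human embryonic stem cell (hESC) line, at 2 stages. ESC are undifferentiated cells, and ECTO is neuroectoderm after 5 days in KnockOut DMEM with KnockOut serum replacement, Noggin (500 ng/ml) and SB431542 (10 µM). Noggin binds bone morphogenetic proteins and SB431542 inhibits activin and Nodal receptors, and both kinds of signal are used to make mesoderm or endoderm.

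Each stage had 4 genotypes with 3 libraries each, 24 libraries in all. hHAR123 cells carry the unedited human HAR123, an enhancer inside the SMG6 gene. HAR123-KO cells lack it, and in cHAR123 and mHAR123 cells the chimpanzee or mouse ortholog takes its place. HAR123 is not a counted gene, so the deletion and the replacements could not be checked in these counts. Per the study, 2 clones of each genotype were sequenced, so at least 2 of the 3 libraries of a group share a clone. The sources used here do not tie libraries to clones, and p-values therefore measure the spread between these libraries, which may be partly technical. For ECTO, the column labels and a supplementary table of the study differ on which libraries are cHAR123 and which are mHAR123. The column labels were followed, so every ECTO value given for cHAR123 or mHAR123 rests on them. Exchanging the labels swaps the values of these genotypes within ECTO, and for KDR, PDGFRA and KIT the stage fits with exchanged labels are given beside the results.

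Total counts were 23334732 to 35198684 per library in ESC and 21022748 to 25978892 in ECTO. Levels are given as CPM (counts scaled to the total of their library), and a library with no read of a gene allows up to 3 counts, or 0.0852 to 0.143 CPM. These limits cover counting error only. Of 8 listed neuroectoderm markers, 7 were higher and 1 lower in hHAR123 ECTO than in ESC. By the same limits, given below, 45.9% of all tested genes differed between these stages. Of 8 listed pluripotency genes, 6 were lower, 1 higher and 1 not called in hHAR123 ECTO against ESC. POU5F1 and NANOG were among the 6 lower genes. The median summed level of the 8 genes was 7019 CPM in hHAR123 ESC and 2417 CPM in hHAR123 ECTO.

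The markers stand at different steps of germ layer formation. KDR is the main VEGF receptor of endothelial precursors, and PDGFRA is a PDGF receptor of paraxial and cardiac mesoderm and of the extraembryonic endoderm. HAND1, HAND2, GATA4 and GATA6 are transcription factors of the heart and lateral mesoderm, and both GATA factors also act in the endoderm. SOX17, FOXA1 and FOXA2 are endoderm transcription factors, and the chemokine receptor CXCR4 is used to sort definitive endoderm. None of these genes is confined to those tissues: hESCs express KDR, the neural crest expresses PDGFRA, the floor plate expresses FOXA2, and neural progenitors express CXCR4.

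Between genes, levels were compared per exon length as RPKM. In hHAR123 ESC the order was KDR (18.2 RPKM), FOXA2 (0.628), CXCR4 (0.210) and PDGFRA (0.115), and the other 6 markers were at 0.0109 RPKM or lower. In hHAR123 ECTO the order was CXCR4 (16.5 RPKM), KDR (1.24), PDGFRA (0.332) and FOXA1 (0.200), with the other 6 at 0.0410 RPKM or lower. The same 4 genes led in the same order in the other 3 genotypes of each stage. Neighbors among those 4 had ranges that did not overlap, with 1 exception, FOXA2 and CXCR4 in mHAR123 ESC. Below the first 4, ranges lay near 0 and overlapped.

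**Figure D1:**
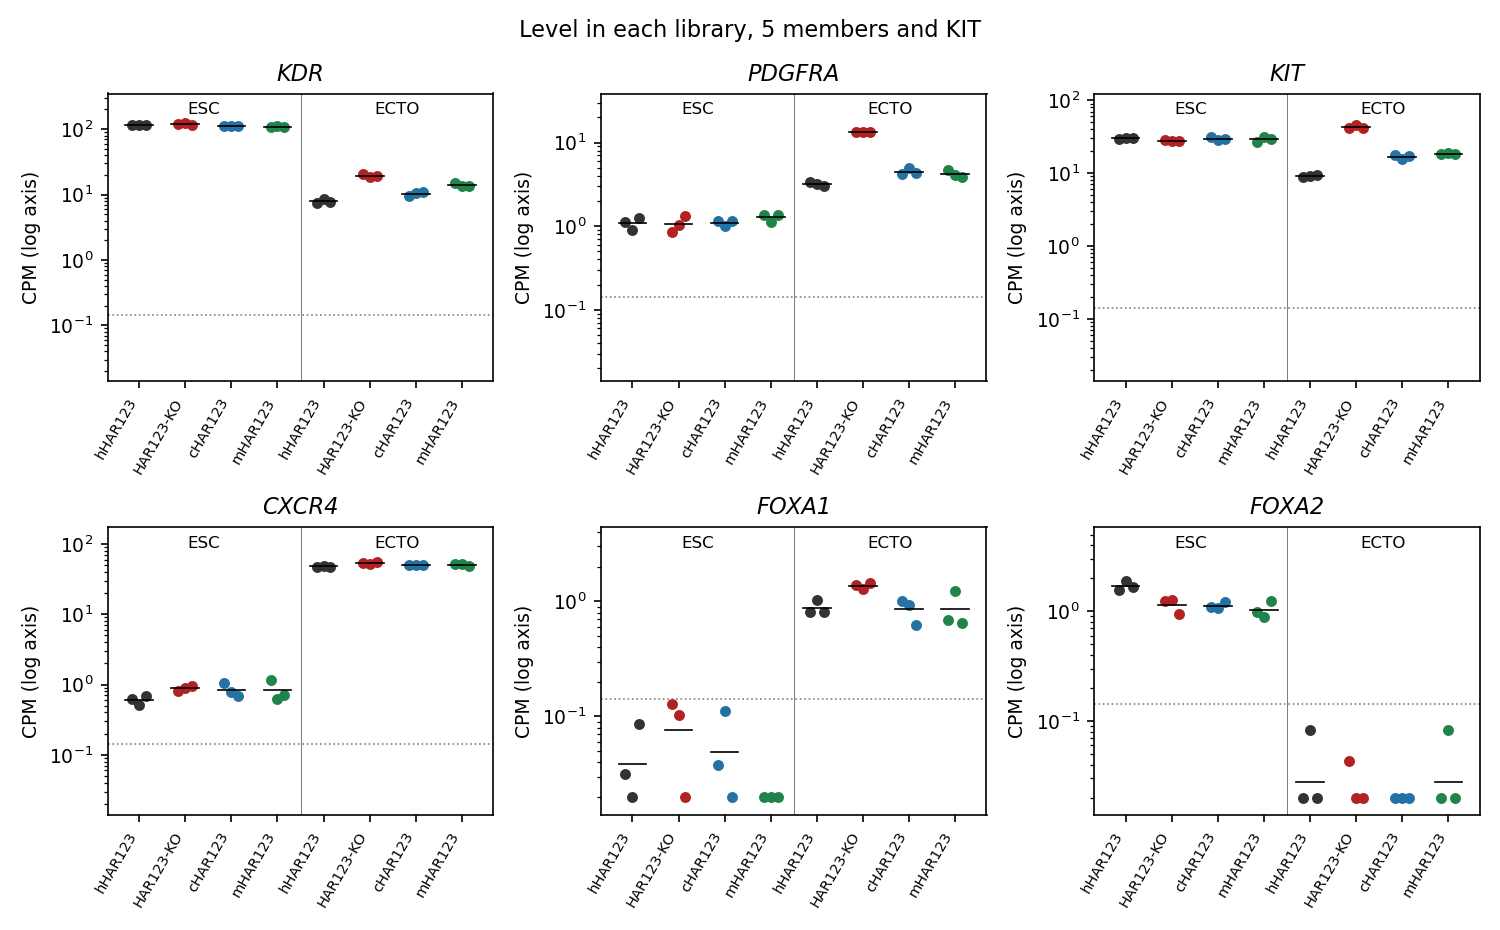
CPM in each library (points, log axis) of KDR, PDGFRA, CXCR4, FOXA1 and FOXA2 and of KIT, which lies between PDGFRA and KDR, by genotype and stage; black lines are means of 3 libraries, the dotted line is 0.143 CPM (3 counts in the shallowest library), and libraries without a read are drawn near the lowest edge. KDR and FOXA2 lie higher in ESC, CXCR4, FOXA1 and PDGFRA lie higher in ECTO, and HAR123-KO ECTO lies above the other ECTO groups for KDR, PDGFRA and KIT.

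The change between the stages was asked first in each genotype. KDR fell and PDGFRA and CXCR4 rose from ESC to ECTO in all 4 genotypes, by edgeR's quasi-likelihood test. A gene was called where its adjusted p was below 0.01 and its log2 fold change beyond 1 in either direction. These 3 markers had reads at both stages. Folds are ratios of mean CPM, while log2 fold changes come from edgeR, which normalizes the libraries in its own way. Between the stages edgeR's values for these markers lay lower than the log2 of the CPM folds. FOXA1 and FOXA2 also passed these limits in every genotype, but each passed the filter on low counts through 1 stage alone, so their calls are a description. The share of all tested genes called in this comparison was 45.9% in hHAR123, 41.1% in HAR123-KO, 42.7% in cHAR123 and 41.9% in mHAR123, so a call between the stages was common. HAND1, HAND2, GATA4, GATA6 and SOX17 had too few reads to be tested in any genotype.

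KDR had 3623, 3901 and 4052 counts in the hHAR123 ESC libraries and 157, 204 and 182 in hHAR123 ECTO. In CPM this was 115.6 ± 1.63 (SD, n = 3) against 7.89 ± 0.492, 14.7-fold lower in ECTO. The fall was 6.13-fold in HAR123-KO, 10.8-fold in cHAR123 and 7.83-fold in mHAR123. The order of the last pair turned with exchanged ECTO labels: the edgeR log2 fold change was -3.65 in cHAR123 and -3.13 in mHAR123 as labeled, and -3.17 and -3.61 when exchanged. The 12 ESC libraries lay between 109.3 and 122.1 CPM and the 12 ECTO libraries between 7.47 and 20.3 CPM. KDR was thus well expressed in undifferentiated cells of every genotype and remained above the counting limit in every ECTO library.

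The VEGF ligands and other receptors were read beside KDR. FLT1, the VEGF receptor that also acts as a decoy, was 146.2-fold lower in mean CPM in hHAR123 ECTO than in ESC. Its edgeR log2 fold change was -7.47 ± 0.08 (SE). FLT4, the lymphatic receptor, fell by 1.14 and the co-receptor NRP1 by 1.63 on edgeR's log2 scale, and NRP2 did not pass (-0.13). In mean CPM FLT4 was 1.81-fold lower and NRP2 1.12-fold higher in ECTO, so the direction for NRP2 depended on the normalization. VEGFA, the ligand of KDR and FLT1, rose by 1.66 on that scale in the same comparison. VEGFA therefore moved in the opposite direction from its receptors KDR and FLT1 in hHAR123 cells. This did not hold for each VEGF ligand. In mean CPM VEGFB was 1.62-fold lower in ECTO, and VEGFC was 1.28-fold higher with ranges that overlapped.

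PDGFRA went the other way from KDR, though from a low level. It had 36, 30 and 44 counts in hHAR123 ESC and 70, 77 and 70 in hHAR123 ECTO, or 1.10 ± 0.177 against 3.17 ± 0.171 CPM, 2.89-fold higher in ECTO. The rise was 12.5-fold in HAR123-KO, 4.06-fold in cHAR123 and 3.27-fold in mHAR123. The edgeR log2 fold change was 1.81 in cHAR123 and 1.54 in mHAR123 as labeled, and 1.76 and 1.58 with exchanged ECTO labels. In the same hHAR123 comparison the PDGF family ligands PDGFA, PDGFB and PDGFD fell by 1.85, 1.99 and 1.86 on the log2 scale. The related receptor PDGFRB fell by 1.57. PDGFC, a ligand of PDGFRA, did not pass (log2 fold change 0.71). Of the 9547 exon bases of PDGFRA, 1533 are shared on the same strand with ENSG00000282278, which had 0 reads. How reads in shared bases were counted is not given in the sources used here, so the PDGFRA levels may be too low.

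Of the 3 markers with reads at both stages, CXCR4 had the largest fold change in each genotype. It had 20, 17 and 24 counts in hHAR123 ESC and 999, 1168 and 1119 in hHAR123 ECTO, and the mean CPM was 78.7-fold higher in ECTO. The rise was 60.5-fold in HAR123-KO, 59.96-fold in cHAR123 and 61.0-fold in mHAR123. Its ligand CXCL12 changed in the opposite direction. CXCL12 had 1243, 1264 and 1372 counts in hHAR123 ESC and 12, 12 and 9 in hHAR123 ECTO, 80.1-fold lower. ACKR3, the other CXCL12 receptor, was 3.14-fold higher in hHAR123 ECTO.

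The FOXA genes changed places. FOXA1 had at most 3 counts in every ESC library and 14 to 35 counts in every ECTO library. With every ESC library set to 3 counts, its mean CPM was 9.82-fold higher in ECTO in hHAR123. It was 12.8-fold higher in HAR123-KO, 7.96-fold in cHAR123 and 8.76-fold in mHAR123. FOXA2 had 25 to 62 counts in every ESC library and at most 2 counts in every ECTO library. With every ECTO library set to 3 counts, FOXA2 was 13.0-fold lower in ECTO in hHAR123. It was 9.13-fold lower in HAR123-KO, 8.83-fold in cHAR123 and 8.37-fold in mHAR123. A library with up to 3 reads can stand for more than 3, so these folds are not strict lower bounds. Both genes encode pioneer factors of the same forkhead family, and at no stage did both exceed 3 counts in the same library.

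The other 5 markers were near 0 in every condition. HAND1 had 21 reads in all 24 libraries together, with 0 in each of the 12 ESC libraries and at most 4 in an ECTO library. HAND2 had 23 reads, at most 6 in a library, and 867 of its exon bases lie opposite HAND2-AS1, which had 264 reads. Whether reads were counted by strand is not given in the sources used here, so the few reads of HAND2 cannot be told apart from those of its antisense partner. GATA4 had 43 reads and at most 7 in a library, and the 3 HAR123-KO ECTO libraries had 0. GATA6 had 40 reads and at most 8 in a library. SOX17 had 2 reads, both in 1 cHAR123 ESC library, and 0 in the other 23 libraries. By stage, HAND1 had 0 reads in ESC and 21 in ECTO, HAND2 4 and 19, GATA4 32 and 11, GATA6 24 and 16, and SOX17 2 and 0. HAND2-AS1 had 9 to 28 reads per library in ESC and 1 to 10 in ECTO, the opposite order from HAND2. None of these 5 markers was tested, between stages or between genotypes, and the stage totals are a description.

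**Figure D2:**
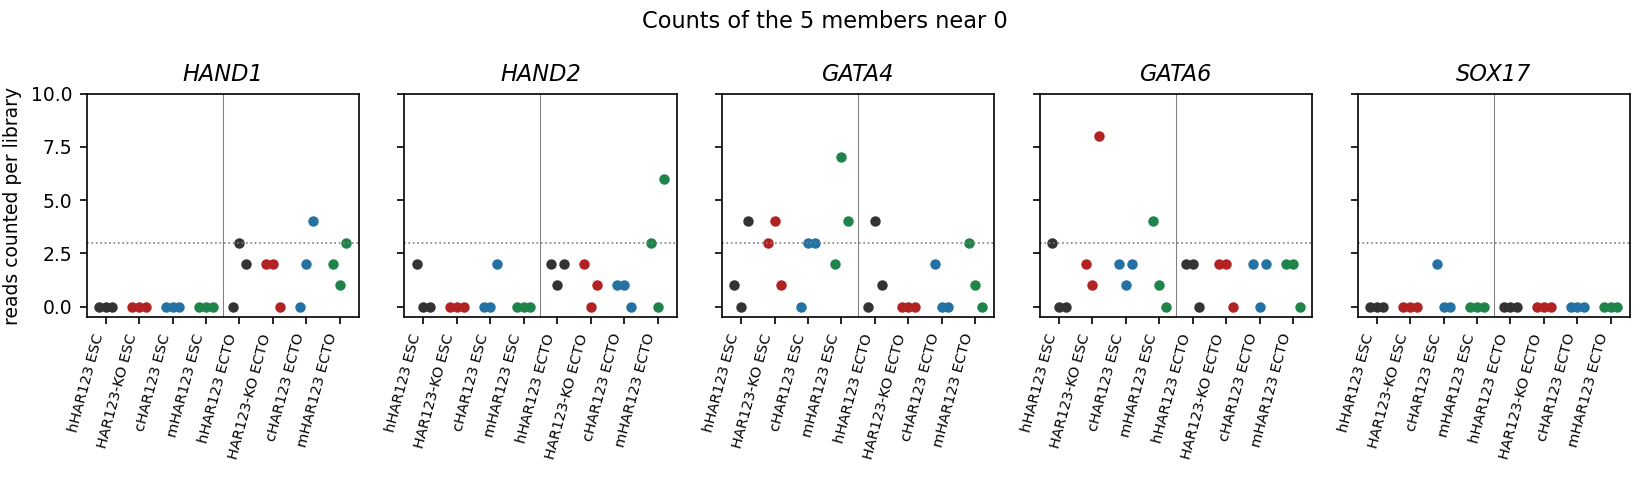
Reads counted per library (points, 3 per group) for HAND1, HAND2, GATA4, GATA6 and SOX17 by genotype and stage, with a dotted line at 3 counts. No library exceeds 8 counts, and SOX17 has reads in 1 library of 24.

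Cofactors of these low genes were present. TCF3 and TCF12, E proteins that pair with HAND factors, were at 321.3 CPM or more and 99.3 CPM or more in each library, and ZFPM1, a GATA cofactor, at 9.68 CPM or more. ZFPM2, the other GATA cofactor, had 22 to 77 counts per library. HAND and GATA partners were therefore measured in libraries where HAND1, HAND2, GATA4 and GATA6 themselves were close to 0.

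The effect of the edits in undifferentiated cells was asked next. Of the 10 markers, 4 (KDR, PDGFRA, FOXA2 and CXCR4) had enough reads to be tested, and edgeR called 0 of them in HAR123-KO, cHAR123 or mHAR123 against hHAR123. Of all tested genes 1.18%, 0.85% and 1.23% were called in those comparisons. DESeq2 also called 0 markers in each. At an unadjusted p under 0.05 the count was 1 in HAR123-KO (FOXA2) and 2 in cHAR123 and in mHAR123 (KDR and FOXA2). The 3 comparisons share the hHAR123 libraries.

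FOXA2 had the lowest adjusted p in HAR123-KO and cHAR123 ESC. Its counts were 50, 62 and 59 in hHAR123, 29, 37 and 31 in HAR123-KO, 29, 29 and 37 in cHAR123, and 34, 25 and 36 in mHAR123. In CPM the hHAR123 libraries (1.58 to 1.87) lay above all 9 edited ones (0.878 to 1.26). The log2 fold change by edgeR was -0.61 ± 0.20 (SE, adjusted p = 0.0287) in HAR123-KO, -0.63 ± 0.20 (adjusted p = 0.0171) in cHAR123 and -0.77 ± 0.20 (adjusted p = 0.00307) in mHAR123. None of these passed the limit on fold change, and of the 3 the mHAR123 value passed that on adjusted p.

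KDR differed little between genotypes in ESC. Its log2 fold change against hHAR123 was 0.01 (95% interval -0.05 to 0.07) in HAR123-KO, -0.07 (-0.14 to -0.01) in cHAR123 and -0.12 (-0.18 to -0.06, edgeR adjusted p = 0.00201) in mHAR123. For PDGFRA, which had 20 to 47 counts per ESC library, the intervals were wider, at -0.49 to 0.43 in HAR123-KO, -0.47 to 0.42 in cHAR123 and -0.23 to 0.61 in mHAR123. CXCR4 had 17 to 40 counts in ESC and log2 fold changes of 0.52, 0.42 and 0.44 in HAR123-KO, cHAR123 and mHAR123, with intervals that include 0. Among 18 partner genes of the markers (ligands, co-receptors and cofactors), 1 was called in HAR123-KO ESC and 1 in cHAR123 ESC. In both it was PDGFB, higher by 1.14 on the log2 scale.

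In neuroectoderm without HAR123, the receptors KDR and PDGFRA were higher than in hHAR123 cells. Of 4 markers tested (KDR, PDGFRA, FOXA1 and CXCR4), edgeR called these 2, where 9.45% of all tested genes were called. Median log2 fold changes were 1.01 over the 4 markers and 0.00 over all tested genes. In bulk RNA, more cells that express a gene and more RNA per cell cannot be told apart.

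PDGFRA had 70, 77 and 70 counts in hHAR123 ECTO and 311, 323 and 326 in HAR123-KO ECTO, or 3.17 ± 0.171 against 13.4 ± 0.0590 CPM (SD, n = 3). All 3 HAR123-KO libraries lay above all 3 hHAR123 libraries. The mean was 4.23-fold higher (log2 fold change 2.13 ± 0.11, SE, edgeR adjusted p = 3.72e-23).

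KDR had 157, 204 and 182 counts in hHAR123 ECTO and 471, 439 and 476 in HAR123-KO ECTO, or 7.89 ± 0.492 against 19.3 ± 1.01 CPM. The groups did not overlap, and the mean was 2.45-fold higher (log2 fold change 1.34 ± 0.08, SE, edgeR adjusted p = 1.49e-19). Since KDR fell between the stages in every genotype, its level in HAR123-KO ECTO was above hHAR123 ECTO and below each ESC library.

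FOXA1 had 17, 25 and 19 counts in hHAR123 ECTO and 32, 31 and 35 in HAR123-KO ECTO, with a log2 fold change of 0.67 ± 0.26 (edgeR adjusted p = 0.0259), which did not pass. CXCR4 had 1230, 1231 and 1352 counts in HAR123-KO ECTO. Its log2 fold change of 0.20 ± 0.05 passed on adjusted p (0.000266, edgeR) but not on size. The groups of both genes did not overlap in CPM, which was also so for genes with small changes, such as TCF3 (ratio 0.882). The share of all genes without such overlap was not counted.

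The change of KDR and PDGFRA depended on the stage. In a test of the difference between the HAR123-KO effect in ECTO and that in ESC, KDR (log2 difference 1.32 ± 0.08, SE, edgeR adjusted p = 1.52e-19) and PDGFRA (2.15 ± 0.24, adjusted p = 2.21e-10) passed, as did 7.87% of all tested genes. CXCR4 did not pass. FOXA1 and FOXA2 did not pass either, but FOXA1 had at most 3 counts per ESC library and FOXA2 at most 2 per ECTO library. For these genes the effect at the low stage could not be estimated, so the test cannot show whether it differed.

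**Figure D3:**
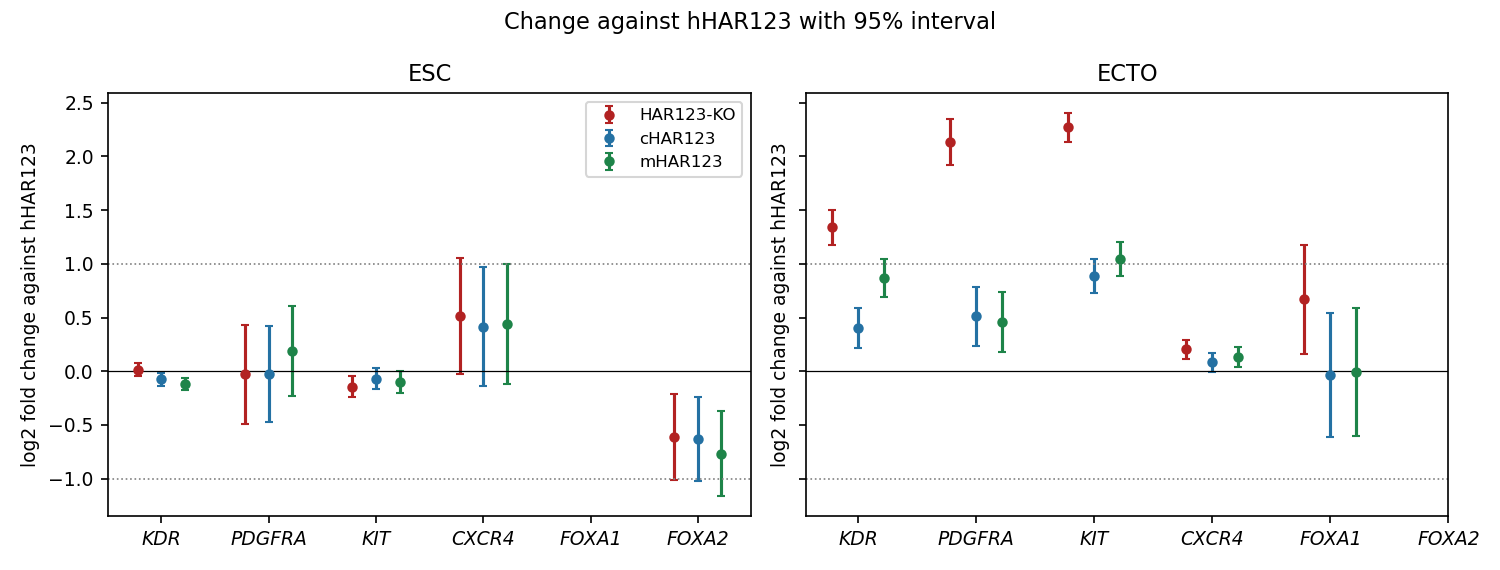
Log2 fold change against hHAR123 with its 95% interval (points and bars, edgeR) for HAR123-KO, cHAR123 and mHAR123 in ESC (left) and ECTO (right); dotted lines mark a log2 fold change of 1 in either direction, and a gene without a point had too few reads. In ECTO, HAR123-KO exceeds 1 for KDR (1.34), PDGFRA (2.13) and KIT (2.27) and mHAR123 for KIT (1.04), and in ESC no point lies beyond 1 in either direction.

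PDGFRA and KDR are neighbors on chromosome 4 of GRCh38, where the gene KIT lies between them. All 3 encode receptor tyrosine kinases of related structure, and KIT, the receptor for stem cell factor, is also a definitive endoderm marker. In the count table PDGFRA spans 54229280 to 54298245 on the plus strand, KIT 54657267 to 54740783 on the plus strand and KDR 55078481 to 55125595 on the minus strand. KIT starts 428.0 kb and KDR 896.3 kb from the PDGFRA start.

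The promoters of these 3 genes are shown because the genes were higher together in HAR123-KO ECTO. Each stretch has 182 bases from RefSeq (GRCh38.p14), begins 250 bases before the start of a RefSeq transcript and holds no exon base of its gene in GENCODE v44. The KIT stretch lies inside the counted gene, in an intron behind a first exon that starts at 54657267. Sequences read 5′ to 3′ on the strand of the gene, with GC boxes (GGGCGG, searched on both strands) in capitals. They lie at chr4:54229043-54229224 (PDGFRA, plus strand), chr4:54657707-54657888 (KIT, plus strand) and chr4:55125664-55125845 (KDR, minus strand).
PDGFRA: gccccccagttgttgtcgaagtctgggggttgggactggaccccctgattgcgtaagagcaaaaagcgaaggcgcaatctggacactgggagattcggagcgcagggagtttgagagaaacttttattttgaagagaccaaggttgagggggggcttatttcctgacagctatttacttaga
KIT: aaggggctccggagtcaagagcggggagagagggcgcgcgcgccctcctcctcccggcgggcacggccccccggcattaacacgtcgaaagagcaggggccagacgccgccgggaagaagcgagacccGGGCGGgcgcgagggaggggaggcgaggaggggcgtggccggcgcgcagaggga
KDR: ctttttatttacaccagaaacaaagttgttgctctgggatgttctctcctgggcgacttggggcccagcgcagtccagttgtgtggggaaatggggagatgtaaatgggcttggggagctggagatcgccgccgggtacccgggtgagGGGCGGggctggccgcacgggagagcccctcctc
The KIT and KDR stretches hold 1 GC box each and the PDGFRA stretch 0, and 31.6% of the 35116 promoter stretches of the same length hold one. None of the 3 stretches holds the sequence TATAAA on either strand, which 7.2% of all stretches hold. The stretches end before the transcript start, and the bases next to the start were not searched. Whether these promoters have a TATA box there was therefore not tested. CpG pairs number 25 in KIT, 9 in KDR and 6 in PDGFRA, and the median over all stretches is 7. The 3 promoters thus differ in base composition, from 51.1% G and C in PDGFRA to 75.8% in KIT.

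KIT was higher in HAR123-KO ECTO, as its neighbors PDGFRA and KDR were. It had 184, 223 and 224 counts in hHAR123 ECTO and 952, 1095 and 1025 in HAR123-KO ECTO, 4.67-fold higher in CPM (log2 fold change 2.27 ± 0.07, SE, edgeR adjusted p = 1.04e-32). In mean CPM KIT fell 3.30-fold from ESC to ECTO in hHAR123 cells, whereas in HAR123-KO cells it was 1.54-fold higher in ECTO. The edgeR log2 fold change in HAR123-KO cells was 0.43.

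Within 1 Mb on either side of the stretch from PDGFRA to KDR the annotation holds 19 protein-coding genes. These were looked at after the values of KDR and PDGFRA were known. Besides the 3 receptors, 10 had enough reads in ECTO, and none of them was called in HAR123-KO. Of all tested genes 9.45% were called, so for so few genes the lack of a call is close to that share. The largest changes among them were SCFD2 (log2 fold change 0.90 ± 0.11) and CHIC2 (0.62 ± 0.10), and CEP135 was at -0.52 ± 0.06. FIP1L1, TMEM165, CLOCK and NMU had log2 fold changes between -0.07 and 0.01.

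**Figure D4:**
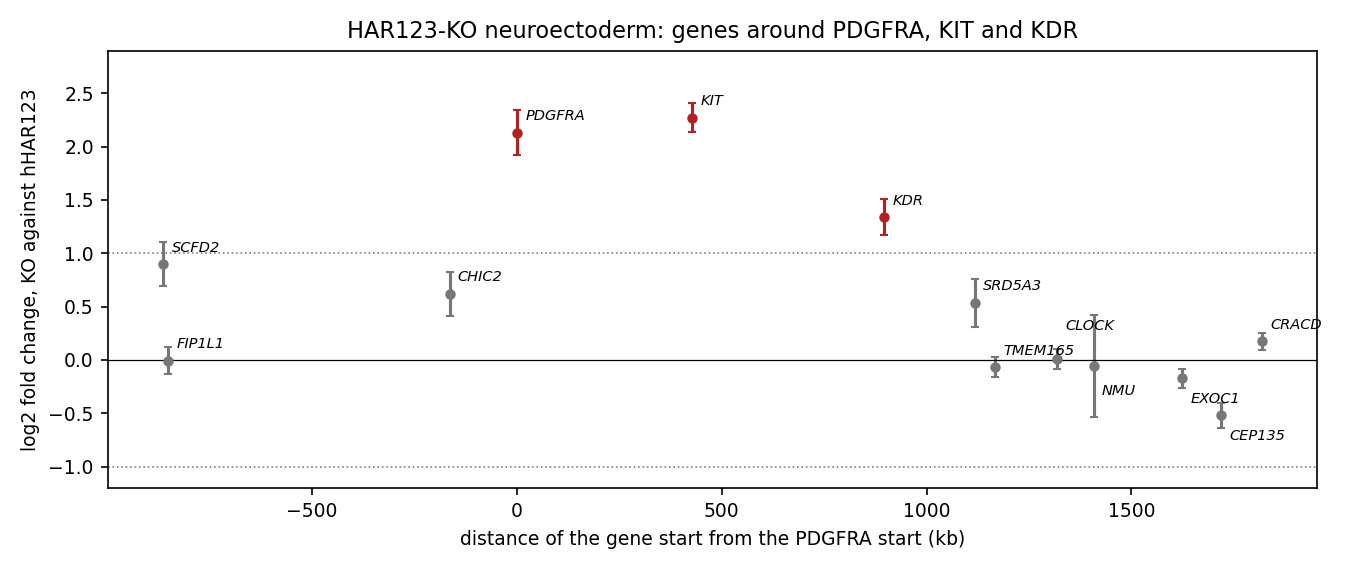
Log2 fold change of HAR123-KO against hHAR123 in ECTO with its 95% interval (edgeR) for 13 protein-coding genes around the receptors, by the distance of the gene start from the PDGFRA start in kb; red points were called, gray points were not, and dotted lines mark 1 and -1. PDGFRA (2.13), KIT (2.27) and KDR (1.34) are the called genes of the stretch.

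The ligands and co-receptors were then read for HAR123-KO ECTO. Of the 18 partner genes, 6 were higher and 1 lower than in hHAR123 ECTO, and 11 were not called. Of all tested genes 9.45% were called in this comparison. The co-receptors of VEGF and semaphorins rose: NRP2 went from 38.3 to 41.2 CPM in hHAR123 to 510.5 to 515.1 CPM in HAR123-KO (log2 fold change 3.74 ± 0.04), and NRP1 rose by 1.76. FLT1 (log2 fold change -0.13), FLT4 (-0.51) and VEGFA (-0.35) were not called. VEGFB and VEGFC were not called either, with ratios of mean CPM of 0.986 and 1.64. KDR and its co-receptors were thus higher while its main ligand was not.

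On the PDGF side, the ligand PDGFC rose by 1.80 and the receptor PDGFRB by 1.36 on the log2 scale. PDGFB, which had 58, 73 and 72 counts in hHAR123 ECTO and 22, 11 and 21 in HAR123-KO ECTO, fell by 1.91. PDGFA, the main early ligand of PDGFRA, was not called (log2 fold change -0.87). CXCL12 rose by 1.44 from 9 to 12 counts in hHAR123 to 23 to 36 counts in HAR123-KO, and the GATA cofactor ZFPM2 rose by 1.25.

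Other genes of mesoderm and endoderm were counted by list, chosen with earlier results of these data known. Of 12 primitive streak and mesendoderm genes 5 were tested in HAR123-KO ECTO, with 2 higher and 2 lower. The WNT target SP5 rose by 2.87 on the log2 scale, from 107 to 182 counts in hHAR123 to 1013 to 1146 in HAR123-KO. The other 3 called genes, FGF17 (higher), LHX1 and GSC (lower), averaged under 1 CPM over these libraries and are named after their values were seen. Of 12 later mesoderm genes 7 were tested, with 4 higher and 0 lower, among them MEF2C (log2 fold change 3.36) and OSR1 (1.44). MEF2C is also active in the neural crest and in neurons. These counts, 4 of 5 and 4 of 7 tested genes, stand beside 9.45% of all tested genes called, and the median log2 fold change was -0.23 for the streak list and 1.12 for the later mesoderm list.

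Of 8 endothelium and blood genes 4 were tested and 1 (TEK, an angiopoietin receptor, log2 fold change 1.15) was higher. Of 10 definitive endoderm genes 6 were tested, and KIT was higher and GSC, also in the primitive streak list, lower. Of 10 primitive and visceral endoderm genes 4 were tested, and PDGFRA itself was the 1 higher gene. Of 8 floor plate genes 4 were tested, with 0 higher and 2 lower, among them NKX6-1 (log2 fold change -1.29). Of 8 amnion and trophectoderm genes 4 were tested, with 2 higher and 1 lower.

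Neural crest markers were also higher in HAR123-KO ECTO. Of 8 markers (FOXD3, SOX10, TFAP2A, TFAP2B, SNAI2, PAX3, PAX7 and ETS1), 8 were called higher, with a median log2 fold change of 4.94. Of all tested genes 9.45% were called. KDR and PDGFRA were not called in cHAR123 or mHAR123 ECTO, though both were higher than in hHAR123. The log2 fold changes were 0.40 and 0.87 for KDR and 0.51 and 0.45 for PDGFRA, in that order of genotypes. Beside 0.978% and 1.03% of all tested genes called there, 7 of the 8 crest markers were called higher in each, with medians of 1.55 and 2.23. Their summed level was 119.1 to 125.7 CPM in hHAR123 ECTO, 1758 to 1769 in HAR123-KO, 281.8 to 294.0 in cHAR123 and 324.5 to 331.7 in mHAR123, and none was at or under 3 counts in every library of an ECTO group. Of 8 neuroectoderm markers 4 were lower and 1 higher in HAR123-KO, and of 8 pluripotency genes 1 was lower and 1 higher. The part of the neural crest markers in the higher KDR, PDGFRA and KIT was not tested.

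**Figure D5:**
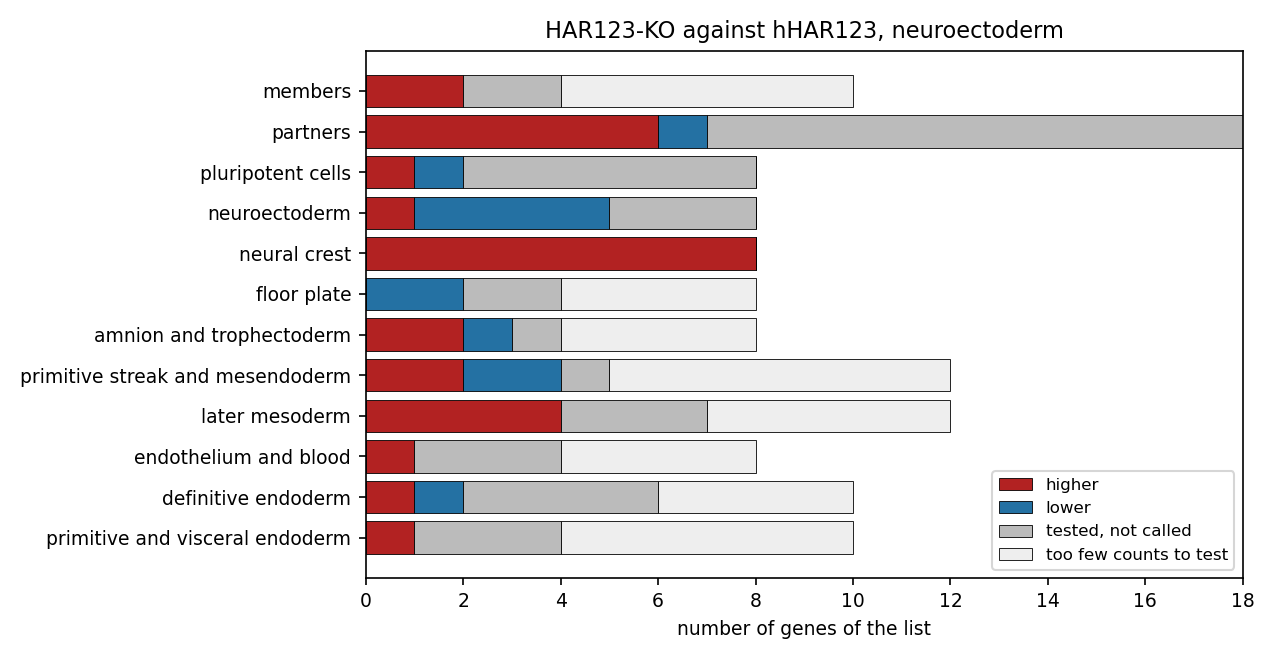
Number of genes of each list (horizontal axis) called higher, called lower, tested but not called, or with too few reads to test, in HAR123-KO against hHAR123 ECTO; some genes stand in more than 1 list. The neural crest list has 8 of 8 genes higher, and the 10 markers (members in the plot) have 2 higher, 2 not called and 6 untested.

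The chimpanzee and mouse orthologs in ECTO were compared with hHAR123, with the same hHAR123 libraries. Of the 4 markers tested, edgeR and DESeq2 called 0 in cHAR123, where 0.978% of all tested genes were called, and 0 in mHAR123, where 1.03% were called. At an unadjusted p under 0.05 there were 2 in cHAR123 (KDR and PDGFRA) and 3 in mHAR123 (KDR, PDGFRA and CXCR4).

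KDR counts were 241, 251 and 241 in the libraries labeled cHAR123 and 392, 326 and 310 in those labeled mHAR123. In CPM all 6 libraries (9.65 to 15.1) lay above hHAR123 (7.47 to 8.43) and below HAR123-KO (18.3 to 20.3). The log2 fold change against hHAR123 was 0.40 ± 0.09 (edgeR adjusted p = 0.00206) in cHAR123 and 0.87 ± 0.09 (adjusted p = 1.16e-09) in mHAR123. Both passed on adjusted p and neither on size.

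PDGFRA counts were 105, 116 and 96 in cHAR123 and 121, 98 and 90 in mHAR123. All 6 libraries (3.89 to 4.90 CPM) lay above hHAR123 (2.99 to 3.33) and far below HAR123-KO (13.3 to 13.4). The log2 fold change was 0.51 ± 0.14 (edgeR adjusted p = 0.00761) in cHAR123 and 0.45 ± 0.14 (adjusted p = 0.0173) in mHAR123. KIT was higher by 0.89 ± 0.08 in cHAR123, which was not called, and by 1.04 ± 0.08 in mHAR123, which was. With exchanged labels these values swap, and the KIT call moves to cHAR123. None of the 18 partner genes was called in either.

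Against HAR123-KO ECTO, PDGFRA was lower in cHAR123 (log2 fold change -1.59 ± 0.10, edgeR adjusted p = 4.17e-22) and in mHAR123 (-1.65 ± 0.10, adjusted p = 3.86e-19). It was the 1 marker called of 4 tested in each, where 7.61% and 7.33% of all tested genes were called. KDR was at -0.91 ± 0.08 in cHAR123 and -0.45 ± 0.07 in mHAR123, neither of which passed on size. FOXA1 was at -0.68 and -0.65, with edgeR adjusted p = 0.026 and 0.0429. Without mHAR123 ECTO replicate 2, FOXA1 in mHAR123 came just past the limit on size and 2 markers were called (edgeR adjusted p = 0.0069).

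The libraries labeled mHAR123 and cHAR123 were compared with each other in ECTO, where 0.261% of all tested genes were called. KDR was higher in the libraries labeled mHAR123 by 0.46 ± 0.08 on the log2 scale (edgeR adjusted p = 6.25e-05), which did not pass on size, and no KDR value overlapped between them. PDGFRA differed by -0.06 (95% interval -0.31 to 0.19), CXCR4 by 0.05 (-0.04 to 0.13) and FOXA1 by 0.03 (-0.57 to 0.63). edgeR and DESeq2 called 0 markers, and 1 (KDR) had an unadjusted p under 0.05. If the labels were exchanged, the sign of these differences would turn.

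The difference between the stages in the effect of an ortholog was called for 0 markers in cHAR123 by edgeR and DESeq2, where 0.797% of all tested genes were called. At an unadjusted p under 0.05 there were 2, KDR (0.48 ± 0.09) and PDGFRA (0.55 ± 0.26). It was called for 1 marker in mHAR123, KDR (1.01 ± 0.08, edgeR adjusted p = 3.78e-13), where 0.967% were called. FOXA1 and FOXA2 were each near 0 at 1 stage, so this test cannot show whether an ortholog effect on them differed. The KDR value is at the limit of 1 and was under it without hHAR123 ECTO replicate 1 (0.97) or mHAR123 ECTO replicate 1 (0.95), and barely under it without hHAR123 ESC replicate 2 or hHAR123 ECTO replicate 3. With the 2 ECTO labels exchanged KDR was at 0.96 in cHAR123 and 0.53 in mHAR123, and no marker was called in either. For KIT this difference was 0.97 in cHAR123 (not called) and 1.16 in mHAR123 (called), and with exchanged labels it was 1.14 in cHAR123 (called) and just under 1 in mHAR123 (not called).

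Genes with the most similar profile over all 24 libraries were found for each of the 5 detected markers, as the mean absolute difference of centered log2 CPM among 17513 genes. For KDR they were FOXO1 (0.157), POLR1G (0.158) and JPH1 (0.163), and for PDGFRA they were ITGA4 (0.139), AXIN2 (0.158) and ENC1 (0.179). For CXCR4 they were ILDR2 (0.209), LGI1 (0.211) and ENSG00000280291 (0.233). The nearest profile to FOXA1 was RRAGC-DT (0.339) and to FOXA2 was SLC38A5 (0.305).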

How the data were processed

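RNA-seq was done on 24 libraries (4 genotypes, 2 stages, 3 each). The authors deposited unnormalized counts for each gene. They removed ribosomal RNA, prepared directional libraries, aligned the reads to GRCh38 with STAR 2.5.2b and counted exon reads with featureCounts. Whether counting used strand is not given in the sources used here, and the deposited table also gives exon lengths. The entry of 1 gene, broken over 3 lines, was left out. Samples were grouped by their labels.

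For each comparison only its libraries were fitted in edgeR 4.0.16 (R 4.3.3; filterByExpr, TMM, quasi-likelihood F test, Benjamini-Hochberg adjustment over all genes tested). Calls needed an adjusted p below 0.01 and a log2 fold change beyond 1 in either direction. Standard errors are the log2 fold change over the square root of F, and intervals are 95% normal ones. Differences between the stages were interactions over 12 libraries. CPM used total counts, and RPKM also exon length. Profiles used a prior count of 2 and genes of at least 1 CPM. Replicates differed by more than sampling noise (chi-square per gene 1.40 to 4.97), so none was treated as a copy. The scripts were tested on simulated data.

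The members and lists were chosen with earlier results of these data known. Named genes were the 10 markers, their 18 partners, 4 neighbors, up to 2 called genes of each other list with at least 1 CPM on average over the libraries compared, and the nearest profiles. POU5F1, NANOG, FGF17, LHX1, GSC and the genes around the receptors were named outside that rule, after their values were seen. One gene that the rule names is not reported here. Of the neighbors, HAND2-AS1 is given beside HAND2, and GATA6-AS1 (3 reads) and LINC00261 were too low to test. The alternatives were DESeq2 1.42.0, its size factors, total counts, no filter, 1 fit of all libraries, a replicate block, an adjusted p of 0.05, leaving out each library and, added after seeing the data, exchanged ECTO labels of cHAR123 and mHAR123.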

Additional observations from a re-analysis of the deposited data

Results flagged for a closer look

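The results here are genes whose change against hHAR123 differed between ECTO and ESC in an edgeR interaction test over 12 libraries, given as the log2 fold change in ECTO minus that in ESC. In HAR123-KO these were KDR (1.32), PDGFRA (2.15), KIT (2.41), NRP2 (3.52), PDGFC (1.28), PDGFRB (1.01), CXCL12 (1.76), ZFPM2 (1.06) and PDGFB (-3.06). PDGFB was higher than in hHAR123 in ESC and lower in ECTO, and CXCL12 had the opposite signs. In cHAR123 it was PDGFB (-1.21). In mHAR123 they were KDR (1.01), KIT (1.16) and PDGFB (-1.15). The values of cHAR123 and mHAR123 rest on the ECTO column labels. With those labels exchanged KDR was at 0.96 in cHAR123 and 0.53 in mHAR123, neither called, and the KIT call moved to cHAR123 (1.14). All of these comparisons share the hHAR123 libraries.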

How the results depend on the processing

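Of 1033 alternative values for the 71 tests of markers, 1026 kept their direction or, where not called, stayed not called, 6 lost a call, 1 gained one and 0 changed sign while called. The calls of KDR and PDGFRA in HAR123-KO ECTO held under every alternative run. Leaving out 1 library gave 1 to 2 markers called for mHAR123 against HAR123-KO in ECTO (FOXA1 was added) and 0 to 1 for the stage difference in mHAR123, where KDR was lost. That KDR call was also lost with total counts in place of TMM (0 markers) and with the 2 ECTO labels exchanged (0 markers). DESeq2 called fewer genes of all tested: 151 (edgeR 246), 73 (178) and 120 (259) for HAR123-KO, cHAR123 and mHAR123 in ESC, 115 (208) and 104 (219) for cHAR123 and mHAR123 in ECTO, 14 (55) for mHAR123 against cHAR123, and 119 (186) and 152 (229) for the stage differences in cHAR123 and mHAR123. With edgeR at an adjusted p of 0.05, the last 2 comparisons had 377 and 487 called genes. The causes were not tested. Samples with the same replicate number did not deviate together (correlations -0.0541 to 0.0568), so the numbers do not pair them. With the replicate block 2 markers and 2003 genes were called in HAR123-KO ECTO (2018 without), and it changed no count of called markers. Depth limits HAND1, HAND2, GATA4, GATA6 and SOX17, which could not be tested, and FOXA1 and FOXA2, whose fold changes between the stages are lower bounds.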
